A study of Mus musculus with 15 samples.

Results

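Cdx1, Cdx2, Cdx4, Evx1, Nkx1-2, Sp5 and Sp8 encode transcription factors of the caudal epiblast and tail bud, the region from which the trunk and tail of the embryo grow. They were picked out of the deposited table by gene name, and all 7 were found among its 56092 named genes. All 7 passed the filter on low values (at least 5 CPM, counts scaled to a library total of 1000000, in at least 2 libraries) and are among the 12943 genes tested. The study followed neuromesodermal progenitors (NMPs), cells that express the neural factor Sox2 and the mesodermal factor Tbxt (Brachyury) together, through an extended culture, and sorted them by reporters for these factors.

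The data are 15 bulk RNA libraries in 8 groups, all from 1 mouse embryonic stem cell line, STR-KI, which carries Sox2::mCherry and Tbxt::GFP, each on an allele paired with a wild-type (WT) one. All cells received 10 ng/mL FGF2 for 48 h and then FGF2 with 5 µM CHIRON99021 for 24 h. CHIRON99021 (CHIR below) inhibits the kinase GSK3 and so switches on WNT signalling through β-catenin. NMP cells were sorted as positive for both reporters (3 libraries). After 48 h more in FGF/CHIR, cells were sorted as Tbxt::GFP+ (Tbxt 48 h, 2 libraries) or Sox2::mCherry+ (Sox2 48 h, 2 libraries). At 7 d, descendants of the Tbxt::GFP+ cells in FGF/CHIR were sorted as negative for both reporters (Tbxt 7 d, 3 libraries). Descendants of the Sox2::mCherry+ cells at 7 d were sorted as double negative (DN) or as Sox2::mCherry+ (Sox2+). They came from FGF/CHIR (DN, 1 library, and Sox2+, 1 library) or from FGF alone (DN, 1 library, and Sox2+, 2 libraries). The sample titles count the 7 d as the culture of the sorted cells, while the design text counts them from NMP induction, so the start of the 7 d is not settled here. Agents and doses are those of the labels, which do not say whether replicates came from separate cultures, so p-values measure the spread between these libraries only.

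Cdx proteins are homeobox factors that bind Hox genes and set the posterior identity of the growing axis, and mice that lack several of them form no trunk or tail. In the caudal epiblast WNT and FGF signals keep Cdx genes, Nkx1-2 and the zinc finger genes Sp5 and Sp8 active, and Sp5 is a direct target of the WNT effector β-catenin with its TCF/LEF partners. Several of the 7 genes also work elsewhere: Cdx2 in trophectoderm and gut endoderm, Evx1 in V0 interneurons of the spinal cord, and Sp8 in limb ectoderm and neural tissue.

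Because CHIR acts through TCF/LEF factors, the 250 bases before the start of each gene were searched on both strands for the TCF/LEF core CTTTGA. RefSeq promoter sequences (build GRCm38.p6) held 6 of the 7 genes in 8 windows, 3 of them for Sp8; Cdx1 was not searched. The 3 windows below show the one with 2 matches, a second with 1 match, and that of Cdx2 with none. Capitals mark CTTTGA or its reverse complement TCAAAG, and each window reads 5′ to 3′ on the strand of its gene.
Sp5, chr2:70474673-70474922, plus strand: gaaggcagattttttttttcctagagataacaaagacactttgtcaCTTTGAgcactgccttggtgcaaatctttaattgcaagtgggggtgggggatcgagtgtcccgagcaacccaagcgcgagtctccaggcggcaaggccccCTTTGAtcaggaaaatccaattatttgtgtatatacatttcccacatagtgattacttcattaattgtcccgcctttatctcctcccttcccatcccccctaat
Sp8, chr12:118846983-118847232, plus strand: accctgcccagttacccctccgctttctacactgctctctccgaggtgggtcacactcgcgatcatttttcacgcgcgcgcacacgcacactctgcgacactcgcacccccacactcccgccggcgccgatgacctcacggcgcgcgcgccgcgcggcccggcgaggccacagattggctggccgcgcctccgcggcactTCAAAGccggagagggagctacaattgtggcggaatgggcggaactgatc
Cdx2, chr5:147307250-147307499, minus strand: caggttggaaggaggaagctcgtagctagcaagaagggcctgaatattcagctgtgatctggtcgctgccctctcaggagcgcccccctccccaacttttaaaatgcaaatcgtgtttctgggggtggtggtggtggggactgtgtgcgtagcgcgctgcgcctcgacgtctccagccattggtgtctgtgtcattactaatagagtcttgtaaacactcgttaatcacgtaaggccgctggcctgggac
In the Sp5 window the matches begin 204 and 104 bases before the start, both on the strand of the gene. The match in the Sp8 window begins 50 bases before the start, on the opposite strand. The windows of Cdx4, Evx1 and Nkx1-2 and the other Sp8 windows held no match. Of all 32851 windows of this length, 13.83% hold at least 1 match and 1.367% at least 2. A CDX core, TTTATG, was found in 1 other Sp8 window (10.76% of all windows), and the GC box GGGCGG, which SP factors bind, in the windows of Nkx1-2 and Sp8 (32.74% of all windows). The T-box core GGTGTGA (3.333% of all windows) was not found in the 8 windows. These matches describe letters only, and their coordinates are not those of the authors' build, GRCm39, for which the deposited table gives no positions.

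The sort could be read from the reporters' own genes. Tbxt was at 222 and 216 CPM in the Tbxt 48 h sort and at 32.1 and 29.3 CPM in the Sox2 48 h sort, against 284, 431 and 445 CPM in NMP cells. Sox2 was at 34.2 and 38.5 CPM in the Tbxt 48 h sort and at 217 and 221 CPM in the Sox2 48 h sort, against 164, 241 and 224 CPM in NMP cells. In double negative cells of the Sox2 branch, Sox2 was at 5.03 CPM in FGF/CHIR and 29.1 CPM in FGF, and Tbxt at 1.14 CPM in FGF/CHIR and 20.4 CPM in FGF. Depth, taken from the smallest step between values, was 3434000 to 9878000 reads in 14 libraries and 799000 in the second FGF Sox2+ library, where 3 reads equal 3.76 CPM. The first Tbxt 7 d library stood apart from its replicates in WNT feedback genes, named after their values were seen: Notum was at 6.11 CPM there and at 211 and 189.6 CPM in the others, and Axin2 at 93.5 CPM against 556 and 546 CPM. It also differed in other genes, likewise named after their values were seen. Hoxd13 was at 229 CPM there against 4.55 and 10.3 CPM, and Gata3 at 26.5 CPM against 1.19 and 0.79 CPM.

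All 7 genes had their highest group mean in NMP cells, as did 9.82% of the 12943 genes tested. The Cdx genes were the first to be followed. Cdx1 was at 544, 496 and 436 CPM in NMP cells, at 68.0 and 80.8 CPM in the Tbxt 48 h sort and at 55.3 and 67.2 CPM in Sox2 48 h cells. At 7 d it was at 31.5 CPM in FGF/CHIR Sox2+ cells, and every other 7 d library was at or below 2.27 CPM. No library of any later group reached the NMP range, and the 48 h groups did not overlap each other.

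Cdx2, the Cdx gene shared with trophectoderm and gut, kept 62.4% of its NMP mean in Tbxt 48 h and 79.7% in Sox2 48 h cells. It was at 638, 636 and 615 CPM in NMP cells, 384 and 402 CPM in the Tbxt 48 h sort, and 504 and 499.6 CPM in Sox2 48 h cells. At 7 d it was at 1.46, 0.396 and 0.527 CPM in Tbxt 7 d cells, 8.69 CPM in FGF/CHIR DN cells, 42.9 CPM in FGF DN cells, 294 CPM in FGF/CHIR Sox2+ cells, and 103 and 90.1 CPM in FGF Sox2+ cells. With the groups ordered by their mean, no neighbours overlapped. Cdx4, the X-linked Cdx gene of the caudal end, was at 106, 104 and 56.1 CPM in NMP cells, 68.6 and 44.7 CPM in the Tbxt 48 h sort and 28.0 and 16.9 CPM in Sox2 48 h cells. NMP and Tbxt 48 h libraries overlapped for Cdx4. It was at 38.2 CPM in FGF/CHIR Sox2+ cells at 7 d, above both Sox2 48 h libraries, and at most at 3.40 CPM in every other 7 d library.

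Evx1, the even-skipped homologue of the primitive streak, was at 152, 182 and 171 CPM in NMP cells, 79.3 and 94.0 CPM in the Tbxt 48 h sort and 71.4 and 72.5 CPM in Sox2 48 h cells. At 7 d it was at 31.3 CPM in FGF/CHIR DN cells and 62.4 CPM in the FGF/CHIR Sox2+ library, against 6.19 CPM in FGF DN cells and 4.03 and 2.50 CPM in FGF Sox2+ cells. The 3 Tbxt 7 d libraries were at 18.3, 1.98 and 1.32 CPM, with the first apart from the others. An antisense gene, Evx1os, overlaps the start of Evx1 in the GENCODE annotation and ran with it, at 10.5, 0.198 and 0 CPM in the same 3 libraries; since it is not stated whether counting used strand, reads of the 2 genes cannot be told apart.

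Nkx1-2, a homeobox gene of the caudal lateral epiblast and the early neural plate, separated the 48 h sorts. It was at 356, 372 and 353 CPM in NMP cells, at 62.0 and 67.0 CPM in the Tbxt 48 h sort and at 238 and 234 CPM in Sox2 48 h cells. At 7 d the DN libraries, at 50.5 CPM in FGF/CHIR and 42.7 CPM in FGF, lay between the FGF Sox2+ libraries, at 36.1 and 53.8 CPM, while the FGF/CHIR Sox2+ library was at 189 CPM. The Tbxt 7 d libraries were at 1.75, 0.396 and 0.263 CPM.

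Of the zinc finger genes, Sp5 was at 210.1, 201 and 197 CPM in NMP cells, 106 and 121 CPM in the Tbxt 48 h sort and 61.8 and 85.3 CPM in Sox2 48 h cells. At 7 d it was high in both sorts from FGF/CHIR, at 80.0 CPM in DN and 103 CPM in Sox2+ cells, and low in both from FGF alone, at 12.2 CPM in DN and 4.67 and 7.51 CPM in Sox2+ cells. In Tbxt 7 d cells it was at 4.08 CPM in the library with low Notum and Axin2 and at 27.7 and 20.5 CPM in the others. Sp8 was at 74.1, 111 and 84.5 CPM in NMP cells, 69.6 and 91.5 CPM in the Tbxt 48 h sort and 69.2 and 62.1 CPM in Sox2 48 h cells, so that NMP and Tbxt 48 h libraries overlapped. At 7 d Sp8 was at most at 1.05 CPM in Tbxt 7 d cells, and at 5.71 CPM in FGF/CHIR DN, 31.4 CPM in FGF DN, 19.3 CPM in FGF/CHIR Sox2+, and 28.0 and 21.3 CPM in FGF Sox2+ cells. The list of limb bud ectoderm genes summed to 81.1 to 159 CPM in Tbxt 7 d cells, where Sp8 was lowest, but mostly through Dlx5 (84.1, 42.2 and 31.9 CPM) and En1 (31.2, 25.9 and 32.1 CPM), and the ectodermal factor gene Trp63 was at 0.291, 0 and 0 CPM. In bulk libraries, fewer cells of a type and less RNA per cell cannot be told apart.

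**Figure D1:**
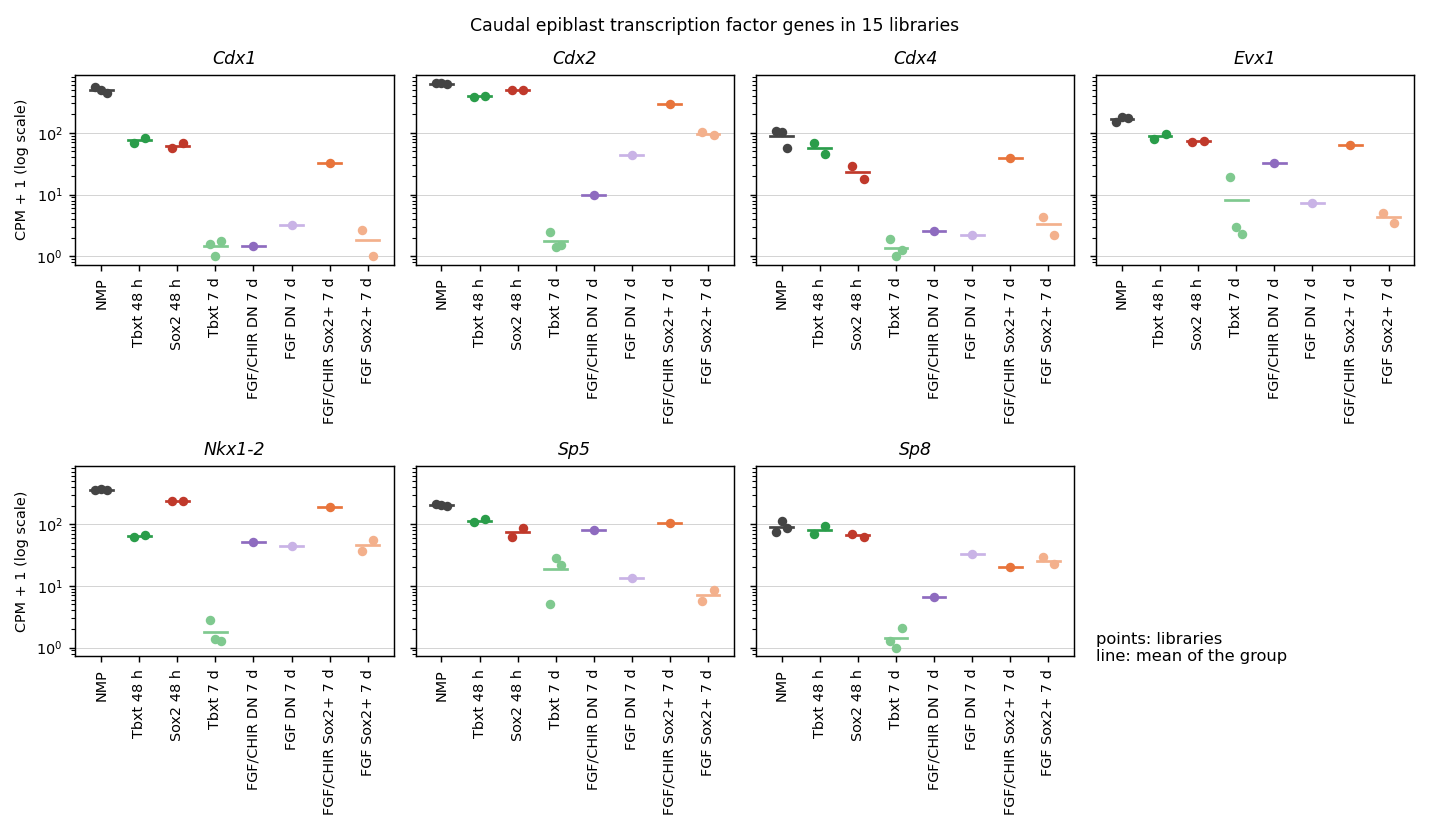
CPM + 1 of each of the 7 genes on a log axis in the 15 libraries of the 8 sorted groups; points are libraries and lines group means. The NMP mean is the highest for every gene, and Sp5 is near 100 CPM in both sorts from FGF/CHIR at 7 d (80.0 CPM in DN and 103 CPM in Sox2+ cells).

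The first question is what the 7 genes did in the 48 h after the NMP stage in each branch. Differences are log2 fold changes of CPM + 1 with their standard error from limma, fitted over all 15 libraries, with p-values adjusted by Benjamini-Hochberg over all 12943 genes and called below 0.05. In Tbxt 48 h cells Cdx1, Cdx2 and Nkx1-2 fell relative to NMP cells, 3 of the 7 genes, against 18.4% of all genes called in either direction and 10.5% called lower. Cdx1 averaged 74.4 ± 9.06 CPM in the Tbxt 48 h sort and 492 ± 54.2 CPM in NMP cells (SD, n = 2 and n = 3), a log2 fold change of −2.71 ± 0.36 (limma, adjusted p = 0.000295). Nkx1-2 averaged 64.5 ± 3.57 CPM in the Tbxt 48 h sort and 360.1 ± 10.0 CPM in NMP cells, a change of −2.46 ± 0.27 (adjusted p = 8.88e-05). The fall of Cdx2, −0.68 ± 0.20 (adjusted p = 0.0318), was not called when any 1 of the 5 libraries compared was left out (adjusted p 0.064 to 0.16). Cdx4 (−0.61 ± 0.39, adjusted p = 0.303), Evx1 (−0.95 ± 0.72, adjusted p = 0.402), Sp5 (−0.84 ± 0.58, adjusted p = 0.357) and Sp8 (−0.15 ± 0.28, adjusted p = 0.755) did not pass. In 5 of the 7 genes every Tbxt 48 h library was below every NMP library, as for 28.9% of all genes.

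In Sox2 48 h cells, Cdx1 and Cdx4 fell relative to NMP cells, 2 of the 7 genes, against 7.92% of all genes called in either direction and 5.27% called lower. The change was −2.99 ± 0.36 for Cdx1 (adjusted p = 0.000268). Cdx4 averaged 22.5 ± 7.85 CPM in the Sox2 48 h sort and 88.7 ± 28.3 CPM in NMP cells, a change of −1.92 ± 0.39 (adjusted p = 0.00919), which was not called without the second Sox2 48 h library (−1.57, adjusted p = 0.15). In every Sox2 48 h library all 7 genes were below all NMP libraries, which held for 24.5% of all genes. The values were −0.33 ± 0.20 for Cdx2 (adjusted p = 0.391), −0.61 ± 0.27 for Nkx1-2 (adjusted p = 0.226), −1.21 ± 0.72 for Evx1 (adjusted p = 0.397), −1.47 ± 0.58 for Sp5 (adjusted p = 0.182) and −0.43 ± 0.28 for Sp8 (adjusted p = 0.434), none of which passed.

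The fit shares 1 spread over all groups, and the first Tbxt 7 d library stood apart from its replicates for Evx1 and Sp5. Without that library, which belongs to neither side of these comparisons, Evx1 was called lower in Sox2 48 h cells (adjusted p = 0.00089) and in Tbxt 48 h cells (adjusted p = 0.003). Sp5 was likewise called lower in Sox2 48 h cells (adjusted p = 0.00028) and in Tbxt 48 h cells (adjusted p = 0.0082), and Nkx1-2 in Sox2 48 h cells (adjusted p = 0.025). The count of the 7 genes called then stood at 5 in both branches, while that over all genes was 1569 in Sox2 48 h cells (1025 with the library) and 3081 in Tbxt 48 h cells (2376 with it).

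Set against each other, the 48 h sorts gave a call for 1 of the 7 genes, Nkx1-2: the change of Tbxt 48 h over Sox2 48 h cells was −1.86 ± 0.30 (adjusted p = 0.00424), where 3.90% of all genes were called and 1.85% called lower. Cdx4 was at 56.7 ± 16.9 CPM in the Tbxt 48 h sort and 22.5 ± 7.85 CPM in Sox2 48 h cells, a difference of 1.31 ± 0.43 that did not pass (adjusted p = 0.117; 0.042 with a replicate block). Every Tbxt 48 h library was above every Sox2 48 h library for 5 of the 7 genes and for 28.9% of all genes. The 2 comparisons with NMP cells and this one share their libraries, so their values are given side by side and are not independent. Markers of other cells differed between these groups: 13 presomitic mesoderm genes summed to 985 to 1164 CPM in Tbxt 48 h and 90.7 to 101 CPM in the Sox2 48 h sort, against 159 to 183 CPM in NMP cells, and 12 genes of pluripotent cells to 91.7 to 107 CPM at 48 h in both sorts, against 477 to 541 CPM in NMP cells. Their part in the changes was not tested.

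**Figure D2:**
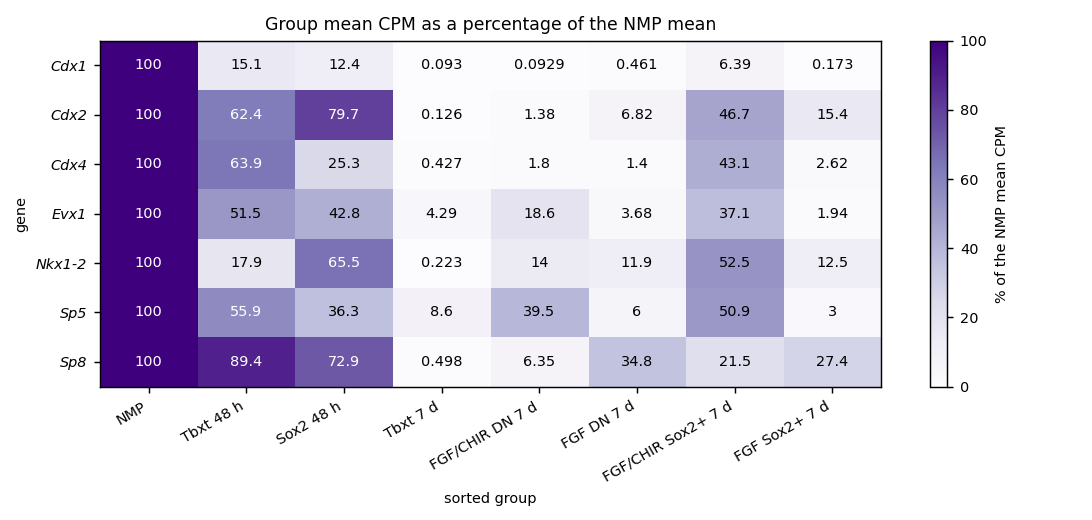
Mean CPM of each of the 7 genes in each group as a percentage of its NMP mean, with the shade running to 100%. Cdx1 was at 15.1% in Tbxt 48 h and 12.4% in Sox2 48 h cells, while Nkx1-2 was at 17.9% in Tbxt 48 h and 65.5% in Sox2 48 h cells; the Tbxt 7 d values of Cdx1, Cdx2, Cdx4, Nkx1-2 and Sp8 rest on 0 to 6 reads a library.

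The next question is whether Sox2+ cells kept these genes at 7 d with CHIR or without it. In FGF alone, all 7 genes fell relative to Sox2 48 h cells, where 24.7% of all genes were called and 6.51% called lower. Every FGF Sox2+ library was below every Sox2 48 h library for all 7 and for 21.9% of all genes. The log2 fold changes were −5.24 ± 0.39 for Cdx1 (adjusted p = 4.48e-06), −2.37 ± 0.22 for Cdx2 (adjusted p = 1.58e-05) and −2.86 ± 0.43 for Cdx4 (adjusted p = 0.000551). They were −4.12 ± 0.79 for Evx1 (adjusted p = 0.00539), −2.39 ± 0.30 for Nkx1-2 (adjusted p = 0.000171), −3.41 ± 0.64 for Sp5 (adjusted p = 0.00432) and −1.39 ± 0.31 for Sp8 (adjusted p = 0.00631). Cdx1 rests on 8 and 0 reads in the FGF Sox2+ libraries and Cdx4 on 16 and 1, so the size of these folds depends on the pseudocount. The call of Sp8 was lost without the second FGF Sox2+ library (−1.20, adjusted p = 0.055). Markers of other cells moved in the same comparison: neural progenitor genes summed to 1334 to 2088 CPM in FGF Sox2+ and 431 to 464 CPM in Sox2 48 h cells, with 9 of the 13 tested called higher. Trophectoderm genes summed to 329.9 to 536 CPM in FGF Sox2+ and 79.0 to 81.0 CPM in Sox2 48 h cells, with 9 of 12 called higher and 1 lower, and genes of pluripotent cells to 310.2 to 718 CPM in FGF Sox2+ and 107 CPM in each Sox2 48 h library, with 7 of 12 called higher. Their part in the changes was not tested.

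In FGF/CHIR, 1 of the 7 genes was called against Sox2 48 h cells, where 1.81% of all genes were called and 0.170% called lower. That gene was Sp8, at 19.3 CPM in the FGF/CHIR Sox2+ library and 65.6 ± 5.02 CPM in Sox2 48 h cells, a change of −1.71 ± 0.38 (adjusted p = 0.0383). The FGF/CHIR Sox2+ library was below both Sox2 48 h libraries for 5 of the 7 genes, as for 26.8% of all genes. The group holds 1 library, so there is no replicate check of it and its error is that of the other groups. The Sp8 call was lost when either Sox2 48 h library, either Tbxt 48 h library or the third NMP library was left out (adjusted p 0.056 to 0.18). Cdx2 (−0.77 ± 0.27, adjusted p = 0.216), Cdx1 (−0.93 ± 0.48, adjusted p = 0.439), Nkx1-2 (−0.32 ± 0.37, adjusted p = 0.794), Evx1 (−0.20 ± 0.97, adjusted p = 0.967), Sp5 (0.50 ± 0.78, adjusted p = 0.866) and Cdx4 (0.78 ± 0.52, adjusted p = 0.579) did not pass, which does not show that they were unchanged. Without the first Tbxt 7 d library Cdx2 was also called lower (adjusted p = 0.017).

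With CHIR against without it at 7 d, 6 of the 7 genes were higher in Sox2+ cells, where 8.96% of all genes were called and 3.36% called higher. In the same 6 the FGF/CHIR library was above both FGF libraries, as for 33.5% of all genes. Cdx1 was higher by 4.30 ± 0.48 (adjusted p = 0.000196), Cdx4 by 3.64 ± 0.52 (adjusted p = 0.000998), Cdx2 by 1.60 ± 0.27 (adjusted p = 0.00257) and Nkx1-2 by 2.08 ± 0.37 (adjusted p = 0.00405). Sp5 was higher by 3.91 ± 0.78 (adjusted p = 0.0136) and Evx1 by 3.92 ± 0.97 (adjusted p = 0.0355). The Evx1 call did not hold when any single NMP, Tbxt 48 h or FGF Sox2+ library was left out (adjusted p 0.052 to 0.094). Sp8 was at 19.3 CPM in the FGF/CHIR Sox2+ library and 24.7 ± 4.77 CPM in FGF Sox2+ cells, a difference of −0.32 ± 0.38 (adjusted p = 0.647), and so was the 1 gene of the 7 not called higher with CHIR in this sort. These comparisons share the Sox2 48 h or the FGF Sox2+ libraries.

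**Figure D3:**
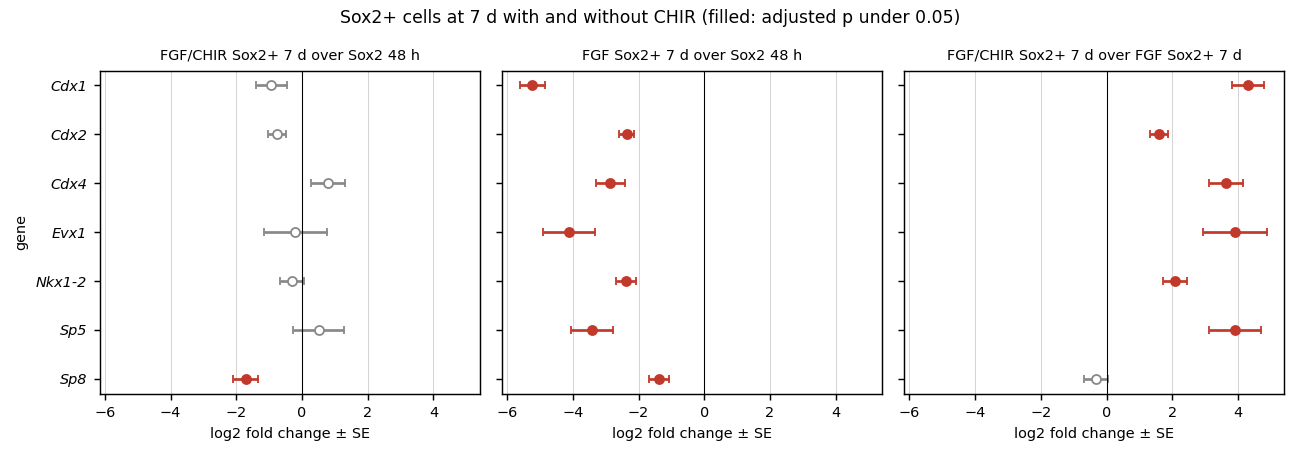
Log2 fold changes (± SE) of the 7 genes in Sox2+ cells at 7 d in 3 comparisons, with filled points for an adjusted p below 0.05. All 7 genes are called lower in FGF Sox2+ than in Sox2 48 h cells, and all but Sp8 are called higher in FGF/CHIR Sox2+ than in FGF Sox2+ cells.

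Markers of other cells moved with the medium in the same sort. The 14 neural progenitor genes summed to 664 CPM in the FGF/CHIR Sox2+ library and 1334 and 2088 CPM in FGF Sox2+ cells. A sum near 664 CPM is not particular to Sox2+ cells. The same genes summed to 670 to 672 CPM in Tbxt 7 d cells, with 5 of them at 0, and to 608 CPM in FGF/CHIR DN cells. Trophectoderm genes, a type that also uses Cdx2, summed to 92.4 CPM in the FGF/CHIR Sox2+ library and 329.9 and 536 CPM in FGF Sox2+ cells, with the trophectoderm factor Eomes at 0.617 CPM against 31.8 and 27.5 CPM. The largest parts of the FGF Sox2+ sums were the keratin genes Krt8, at 132 and 102 CPM, and Krt18, at 123 and 68.9 CPM. Tfap2a of the same list went the other way, at 18.5 CPM in the FGF/CHIR Sox2+ library against 5.94 and 15.02 CPM. Tfap2c, at 30.5 CPM in the FGF/CHIR Sox2+ library, lay between the FGF Sox2+ libraries, at 39.4 and 27.5 CPM. The list of 13 genes for V0 and neighbouring interneurons summed to 27.7 CPM in the FGF/CHIR Sox2+ library and 159 and 495 CPM in FGF Sox2+ cells. Most of that sum came from genes of neurons in general, with Tubb3 at 14.6 CPM against 57.5 and 263 CPM, Elavl3 at 1.03 CPM against 27.0 and 101 CPM and Elavl4 at 7.81 CPM against 34.8 and 109 CPM. Of the genes closer to the V0 class, Dbx1 was at 0 CPM against 19.96 and 2.50 CPM, Evx2 at 0 CPM against 0 and 1.25 CPM, and the inhibitory transporter gene Slc32a1 was at 0 in all 15 libraries. The part of such cells in the levels of Cdx2 and Evx1 was not tested; both genes were lower, and these marker sums higher, in FGF Sox2+ cells.

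The third question concerns the double negative cells of the Sox2 branch. Averaged over both media, 4 of the 7 genes were lower in DN than in Sox2+ cells, where 14.1% of all genes were called and 6.99% called lower. The averaged differences were −3.04 ± 0.20 for Cdx2 (adjusted p = 1.21e-06), −2.20 ± 0.40 for Cdx4 (adjusted p = 0.00305), −1.74 ± 0.36 for Cdx1 (adjusted p = 0.00753) and −0.96 ± 0.28 for Nkx1-2 (adjusted p = 0.0381). Within FGF/CHIR, DN minus Sox2+ was −4.93 for Cdx2, −3.92 for Cdx4, −4.48 for Cdx1 and −1.88 for Nkx1-2. Within FGF the same differences were −1.15, −0.49, 0.99 and −0.05, so Cdx1 was higher in DN cells there. For Cdx1 the FGF libraries held 11 reads in DN and 8 and 0 reads in Sox2+ cells. Only the FGF Sox2+ group holds more than 1 library here. The Nkx1-2 call was lost under several settings, among them each left-out NMP, Tbxt 48 h or Sox2 48 h library and the second FGF Sox2+ library (adjusted p 0.053 to 0.098). Sp8 (−0.63 ± 0.29, adjusted p = 0.169), Evx1 (−0.10 ± 0.74, adjusted p = 0.948) and Sp5 (0.28 ± 0.60, adjusted p = 0.797) did not pass, and the sign of Evx1 turned under other scalings. The Cdx1 call was lost with a pseudocount of 0.25 (adjusted p = 0.17), with voom (−2.49) and in the compared groups alone (−1.74). The Cdx4 call was lost with voom (−2.83).

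The effect of CHIR was called as different between the sorts for the 3 Cdx genes, in a comparison where 2.44% of all genes were called and 0.749% called in this direction. Of the 3, Cdx2 alone kept the call under every alternative tried. With CHIR against without it, Cdx2 differed by 1.60 in Sox2+ cells and by −2.18 in DN cells, a contrast between the sorts of 3.78 ± 0.41 (adjusted p = 0.00122). For Cdx1 the values were 4.30 in Sox2+ cells and −1.17 in DN cells, 5.47 ± 0.73 apart (adjusted p = 0.00275), with DN cells resting on 2 reads in FGF/CHIR and 11 reads in FGF. For Cdx4 they were 3.64 in Sox2+ cells and 0.22 in DN cells, 3.42 ± 0.80 apart (adjusted p = 0.0427); this call was lost in 12 of 21 alternatives, among them voom (adjusted p = 0.59), the compared groups alone (adjusted p = 0.25) and 8 left-out libraries (adjusted p 0.054 to 0.098). In DN cells Cdx4 rested on 7 reads in FGF/CHIR and 6 reads in FGF, too few to tell a change in these cells from none. Nkx1-2 (1.84 ± 0.56, adjusted p = 0.122), Sp8 (1.95 ± 0.58, adjusted p = 0.109), Evx1 (1.75 ± 1.48, adjusted p = 0.686) and Sp5 (1.29 ± 1.20, adjusted p = 0.719) did not pass. Without the first Tbxt 7 d library Nkx1-2 (adjusted p = 0.0055) and Evx1 (adjusted p = 0.019) were called too. Cdx1 was not called with a pseudocount of 0.25 (adjusted p = 0.052), with voom (adjusted p = 0.062) or in the compared groups alone (adjusted p = 0.091). In DN cells Sp5 differed by 2.62 and Evx1 by 2.17 between FGF/CHIR and FGF, with 1 library a side. Sp8 differed there by −2.27, on 25 reads in FGF/CHIR and 152 reads in FGF, and Nkx1-2 by 0.24. A contrast between the sorts was not particular to the Cdx genes: for Tbxt it was 4.44 ± 0.67.

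Genes of the gut endoderm list were high in the same DN libraries. The 15 gut endoderm genes summed to 270.4 CPM in FGF/CHIR DN and 1138 CPM in FGF DN cells, against 20.5 CPM in FGF/CHIR Sox2+ and 36.3 and 67.3 CPM in FGF Sox2+ cells. The endoderm factor Sox17 was at 37.9 CPM in FGF/CHIR DN and 228 CPM in FGF DN cells, Gata6 at 99.0 and 459.6 CPM, and Foxa2 at 10.5 and 119.9 CPM. In the same order, the gut epithelial genes Shh and Vil1 were at 0.686 and 0 CPM and at 0 and 0.619 CPM, and the intestinal cadherin gene Cdh17 was at 0 in all 15 libraries. Trophectoderm genes summed to 373 CPM in FGF/CHIR DN and 1171 CPM in FGF DN cells. The keratin genes Krt8, at 115 and 461 CPM, and Krt18, at 115 and 316 CPM, were the largest parts of these sums. Of the 12 tested, 6 were called higher and 0 lower in DN than in Sox2+ cells, averaged over both media. Elf5 was at 0 and 1.03 CPM, and Tfap2a at 11.7 and 4.95 CPM against 18.5 CPM in FGF/CHIR Sox2+ cells. Genes of pluripotent cells summed to 489 CPM in FGF/CHIR DN and 1026 CPM in FGF DN cells, against 86.1 CPM in FGF/CHIR Sox2+ and 310.2 to 718 CPM in FGF Sox2+ cells. In all 3 lists the FGF DN library was the highest of the 15, and Cdx2 was at 8.69 CPM in FGF/CHIR DN and 42.9 CPM in FGF DN cells. The part of such cells in the Cdx2 level was not tested.

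**Figure D4:**
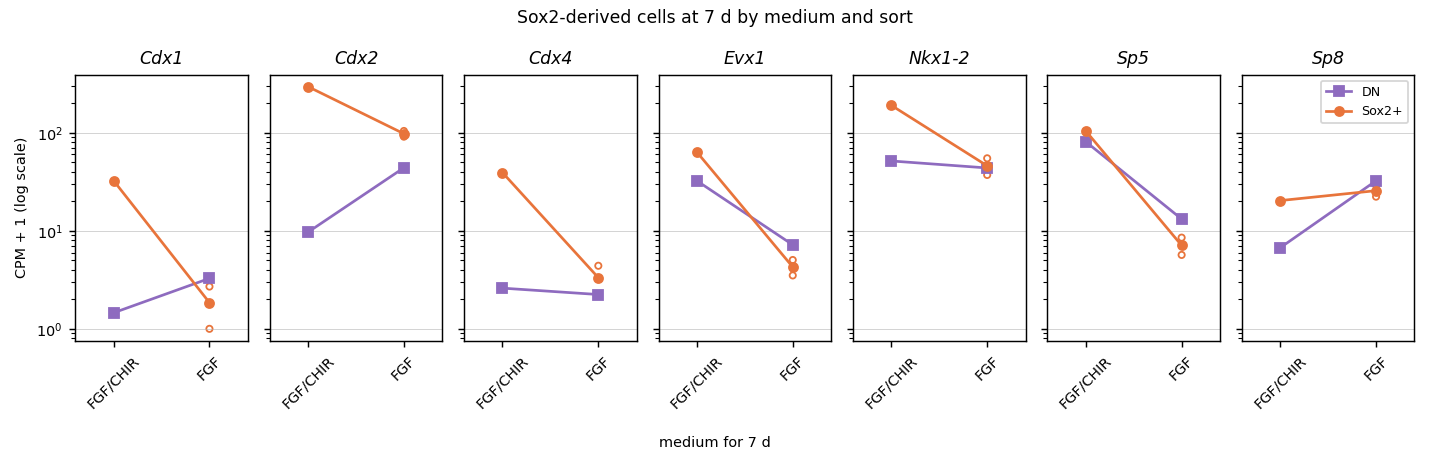
CPM + 1 on a log axis of the 7 genes in Sox2-branch cells at 7 d, with FGF/CHIR left of FGF, squares for DN and circles for Sox2+ cells; small open circles are the 2 FGF Sox2+ libraries. The lines of Cdx1 and Cdx2 slope in opposite directions in the 2 sorts, while those of Sp5 slope the same way (80.0 against 12.2 CPM in DN cells). The DN line of Cdx1 rests on 2 reads in FGF/CHIR and 11 reads in FGF.

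In the Tbxt branch, all 7 genes were lower at 7 d than in Tbxt 48 h cells, where 54.2% of all genes were called and 23.5% called lower, and lower than in NMP cells, where 62.7% were called and 29.7% called lower. Every Tbxt 7 d library was below every Tbxt 48 h library for all 7 genes (30.7% of all genes) and below every NMP library for all 7 (32.2% of all genes). Cdx2, at 3792 and 2383 reads in Tbxt 48 h libraries, was at 2 to 5 reads in the 3 Tbxt 7 d libraries (adjusted p = 4.2e-11 against Tbxt 48 h cells). Cdx1 was at 0 to 3 reads there (adjusted p = 1.08e-07), Cdx4 at 0 to 3 reads (adjusted p = 3.33e-07), Sp8 at 0 to 4 reads (adjusted p = 1.37e-08) and Nkx1-2 at 1 to 6 reads (adjusted p = 2.65e-08). Sp5 was at 14, 140 and 78 reads there, and Evx1 at 63, 10 and 5 reads, the last within the range of the genes just named. The difference from Tbxt 48 h cells was −4.09 ± 0.72 for Evx1 (adjusted p = 0.00105) and −2.96 ± 0.58 for Sp5 (adjusted p = 0.00179). Without the first Tbxt 7 d library it was −5.05 for Evx1 and −2.20 for Sp5. For Evx1 the library at 18.3 CPM is the one in which Sp5 was lowest, at 4.08 CPM.

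The other genes of the caudal epiblast list, which holds its WNT and FGF ligands, the retinoic acid enzyme gene Cyp26a1 and further factors (18 tested, Tbxt itself among them), moved in both directions. In Tbxt 48 h cells 5 rose and 7 fell relative to NMP cells, with a median of −0.99 against −0.02 over all genes. Grsf1, an RNA-binding protein gene, fell by 3.11 ± 0.12 on the log2 scale (adjusted p = 4.2e-08), and Gdf11, a growth factor gene of the tail bud, rose by 2.07 ± 0.19 (adjusted p = 2.5e-05). In Sox2 48 h cells 2 rose and 10 fell, with a median of −1.45, and Cyp26a1 fell by 3.51 ± 0.22 on the log2 scale (adjusted p = 2e-06). In FGF Sox2+ cells at 7 d 2 rose and 11 fell relative to Sox2 48 h cells. In FGF/CHIR Sox2+ cells 3 were higher and 2 lower than in FGF Sox2+ cells (5 and 3 without the first Tbxt 7 d library). Among the higher ones were Mnx1, a homeobox gene, at 26.0 CPM against 0.425 and 1.25 CPM, and the ligand gene Wnt5b, at 29.7 CPM against 5.10 and 1.25 CPM. Among the lower ones was Cyp26a1, at 0.103 CPM against 5.73 and 5.01 CPM. In Tbxt 7 d cells 16 of the 18 fell relative to Tbxt 48 h cells.

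WNT targets and feedback genes (18 tested) gave few calls over the first 48 h. In Sox2 48 h cells none of the 18 was called against NMP cells by limma, 4 had an unadjusted p below 0.05 and the median was −0.18; without the first Tbxt 7 d library 6 were called, 4 of them higher. In Tbxt 48 h cells 2 rose, Nkd2, a WNT inhibitor gene, by 2.83 ± 0.33 (adjusted p = 0.00013) and Lef1, which encodes a nuclear partner of β-catenin, by 0.98 ± 0.16 (adjusted p = 0.0012); without that library 9 were called, 7 of them higher. In FGF Sox2+ cells at 7 d 7 fell relative to Sox2 48 h cells (11 called without that library, 4 without the second Sox2 48 h or the second FGF Sox2+ library, and 3 with voom), and in FGF/CHIR Sox2+ cells 6 were higher than in FGF Sox2+ cells (12 without it). Among these were Nkd2, at 86.6 CPM against 1.70 and 1.25 CPM, and Tcf7, a second partner of β-catenin, higher by 1.88 ± 0.27 (adjusted p = 0.00084).

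Hox genes of the trunk (15 tested) and of the posterior end (terminal Hox, 11 tested), many of which Cdx proteins bind, mostly rose over the first 48 h where they were called. In Sox2 48 h cells 7 trunk and 4 terminal Hox genes rose relative to NMP cells, among them Hoxc9 by 2.41 ± 0.20 (adjusted p = 1.9e-05) and Hoxc10, at 196 and 214 CPM in Sox2 48 h against 0.907, 2.09 and 3.31 CPM in NMP cells. The trunk count was 4 without the first Sox2 48 h library, and without the first Tbxt 7 d library 9 were higher and 2 lower. In Tbxt 48 h cells 6 trunk and 3 terminal Hox genes rose and 1 trunk gene fell; the trunk genes called were 4 without the first NMP or the first Tbxt 48 h library and 3 without the second Tbxt 48 h library, and the terminal ones 5, 4 of them higher, without the first Tbxt 7 d library. In FGF Sox2+ cells 14 of 15 trunk and 4 of 11 terminal Hox genes fell relative to Sox2 48 h cells. With CHIR against without it in Sox2+ cells at 7 d, 13 trunk and 8 terminal Hox genes were higher, among them Hoxa5 by 2.60 ± 0.27 (adjusted p = 0.00011). Hoxc13 was at 106 CPM in the FGF/CHIR Sox2+ library, against 0.849 and 0 CPM in FGF Sox2+ cells. In DN cells 13 trunk genes were lower than in Sox2+ cells. In Tbxt 7 d cells 11 trunk Hox genes fell and 2 rose relative to Tbxt 48 h cells, where 54.2% of all genes were called. In the same comparison 5 terminal ones rose (8 without the third Tbxt 7 d library), among them Hoxa10 by 2.99 ± 0.25 (adjusted p = 9.1e-07). The part of the Cdx genes in the Hox changes was not tested.

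Close relatives of the 7 genes gave few reads or a different pattern. Nkx1-1 and the Cdx-related Gsx2 were at 0 in all 15 libraries, and Evx2, the neighbour of the HoxD genes, was above 1.25 CPM in 1 library only, the first Tbxt 7 d library, at 6.99 CPM. Sp9, the closest relative of Sp8, was at 20.6 CPM in FGF/CHIR DN cells and 19.6 CPM in the FGF/CHIR Sox2+ library, against 0.619 CPM in FGF DN and 1.49 and 1.25 CPM in FGF Sox2+ cells; the Sox2+ difference did not pass (3.12 ± 1.04, adjusted p = 0.0875). In Tbxt 7 d cells Sp9 was at 20.2, 0.792 and 2.11 CPM. Sp4 rose in Tbxt 48 h cells relative to NMP cells by 1.04 ± 0.20 (adjusted p = 0.0035).

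Over the 15 libraries, the 7 genes correlated with each other at Pearson r of log2(CPM + 1) from 0.58 (Sp5 and Sp8) to 0.97 (Cdx2 and Sp8); the libraries share groups and 7 d cells with low levels, so these are descriptions. The genes with the most similar pattern, among those with a group mean of at least 20 CPM, were Mnx1 for Cdx1 (r = 0.96) and Cdx4 (r = 0.96), Arid3b (r = 0.99) and Foxb1 (r = 0.99) for Cdx2, and Il17rd for Evx1 (r = 0.95). They were Rpl4 for Nkx1-2 (r = 0.98), Tcf7 for Sp5 (r = 0.96), and Nampt and Lin28a for Sp8 (r = 0.98 for each). The list of WNT targets holds Tcf7, and the caudal epiblast list holds Mnx1 and Lin28a.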

How the data were processed

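Polyadenylated RNA of sorted cells was extracted on beads and made into libraries with oligo-dT priming, molecular identifiers and tagmentation, per the labels' protocols. Reads were aligned with STAR 2.7 to GRCm39 and handled with SAMtools 1.21, per the submitters' processing notes; the counting step, its use of strand and of molecular identifiers, and the annotation are not stated in the sources used here. Values are CPM as the authors scaled and deposited them: each library sums to 1000000 over 78409 rows. Of these, 21909 rows without a name and 92 spike-in rows were left out, and 627 rows sharing a symbol were summed by symbol. Tbxt is listed there under its older symbol, T. Between 71.1 and 78.7% of nonzero values were whole multiples of the smallest step within 0.01 reads, so whole reads were not recovered and no count test was the main one; floors and reads cover counting error only.

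From the deposited CPM, log2(CPM + 1) was fitted with limma 3.58.1 in R 4.3.3 (limma-trend, robust, two-sided, 7 residual degrees of freedom, group means only). Because the values are shrunk by the pseudocount of 1, changes of low genes are understated. The 3 groups of 1 library take the spread of the others. There were 10 comparisons. The fit was tested on simulated data with known changes, which held no outlying library. That test therefore does not cover the effect of the first Tbxt 7 d library on the calls. The 7 genes and the 12 gene lists were chosen with earlier results of these data known. Genes named besides the 7 are the reporters, relatives of the 7, the 3 genes most like each by Pearson r, and up to 4 called genes of each list with the largest changes; part of them was left out for length, and other names are marked as chosen after their values were seen. Genes of the marker lists for other cells were also named after their values were seen, to show what carries a sum and which markers are at or near 0. Promoter letters came from a RefSeq table, with Python 3.11.15, pandas 2.3.3 and matplotlib 3.10.9. Alternatives were pseudocounts, filters, scalings, array weights, voom, a replicate block, fits of the compared groups alone and each library left out.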

Additional observations from a re-analysis of the deposited data

Results flagged for a closer look

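For Cdx1, Cdx2 and Cdx4 the effect of CHIR at 7 d was called as different between the sorts of the Sox2 branch, by the test of the difference itself in limma. Under the alternatives tried, Cdx2 kept this call in every one, Cdx1 lost it in 3 of 21 (adjusted p 0.052 to 0.091) and Cdx4 in 12 of 21 (adjusted p 0.054 to 0.59). The log2 effect in Sox2+ cells minus that in DN cells was 5.47 for Cdx1, 3.78 for Cdx2 and 3.42 for Cdx4. In Sox2+ cells each of the 3 genes was higher with CHIR, while in DN cells Cdx1 and Cdx2 were lower with it and Cdx4 differed by 0.22. In DN cells Cdx2 rested on 38 reads in FGF/CHIR and 208 reads in FGF. Sp8, whose contrast was not called, was also lower with CHIR in DN cells, by −2.27 on 25 and 152 reads. Cdx1 rested on 2 and 11 reads there and Cdx4 on 7 and 6, too few for a firm direction. Each DN group holds 1 library, so no replicate stands behind these values, and gut endoderm, trophectoderm and pluripotent cell genes were highest in the FGF DN library; their part was not tested.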

How the results depend on the processing

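Over the 70 fold changes of the 7 genes, 1512 alternative values were computed: 1417 kept direction and side of the threshold, 60 lost a call, 30 gained one and 5 changed sign, all of these uncalled. Evx1 in DN over Sox2+ cells was 0.0046 with median-of-ratios scaling, 0.052 with quantile normalization and ran from −0.23 to 0.032 with 1 library left out (0.032 without the first FGF Sox2+ library), and Sp8 in Tbxt 48 h over NMP cells ran from −0.35 to 0.043 (0.01 without the second NMP library, 0.043 without the first Tbxt 48 h library). The number of the 7 genes called in Sox2 48 h over NMP cells (2) was 1 with a pseudocount of 0.25 and 5 with array weights, voom or the compared groups alone. In Tbxt 48 h over NMP cells (3) it was 5 in the compared groups alone. In Tbxt 48 h over Sox2 48 h cells (1) it was 0 with a pseudocount of 0.25, and 2 with a replicate block or the groups alone. In FGF/CHIR Sox2+ over Sox2 48 h cells (1) it was 0 with a pseudocount of 0.25, no filter or the groups alone, and 2 with a pseudocount of 4, array weights or voom. In DN over Sox2+ cells (4) it was 2 with a pseudocount of 0.25 or voom, and for the difference between sorts (3) it was 1 with a pseudocount of 0.25 or the groups alone and 5 with array weights. With 1 library left out, the counts ran from 1 to 5 for Sox2 48 h over NMP (5 without the first Tbxt 7 d library, 1 without the second Sox2 48 h library), 2 to 5 for Tbxt 48 h over NMP (5 without the first Tbxt 7 d library), 1 to 1 for Tbxt 48 h over Sox2 48 h, 6 to 7 for FGF Sox2+ over Sox2 48 h, 0 to 2 for FGF/CHIR Sox2+ over Sox2 48 h, 5 to 6 for FGF/CHIR over FGF Sox2+, 7 to 7 for both comparisons of Tbxt 7 d, 3 to 4 for DN over Sox2+ and 2 to 5 for the difference between sorts (5 without the first Tbxt 7 d library). The cause was not tested. Over all genes, array weights called 3510 in Sox2 48 h over NMP cells, against 1025, and 1444 for the difference between sorts, against 316; the compared groups alone called 0 in FGF/CHIR Sox2+ over Sox2 48 h cells, against 234. With 1 library left out, the genes called fell as low as 316 in Sox2 48 h over NMP and 1456 of 3203 in FGF Sox2+ over Sox2 48 h cells (both without the second Sox2 48 h library), 709 of 2376 in Tbxt 48 h over NMP and 132 of 505 in Tbxt 48 h over Sox2 48 h (both without the second Tbxt 48 h library), and 86 of 234 in FGF/CHIR Sox2+ over Sox2 48 h (without the first Sox2 48 h library). Each count was highest without the first Tbxt 7 d library (1569, 3945, 3081, 936 and 499 in the same order), and the shares of all genes called move with them. In FGF Sox2+ over Sox2 48 h cells 2361 of 3203 genes called were higher, and 1693 of 3061 with median-of-ratios scaling, which moved the median of all genes by −0.16.

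Replicate numbers did not pair the libraries across all groups: over 21 pairs with the same number, deviations from group means correlated at −0.19 to 0.48 (median −0.08), and 4 pairs were above 0.1. NMP and Tbxt 48 h libraries were the exception, at 0.48 for the first and 0.46 for the second of each. With the numbers crossed the values were −0.48 and −0.46. Deviations in a group of 2 libraries mirror each other, so these values are not independent and do not settle whether those groups were paired. The replicate block, fitted without the 3 single-library groups, called 683 genes in Sox2 48 h over NMP cells (1019 without it on the same libraries), 1717 in Tbxt 48 h over NMP (2378) and 354 in Tbxt 48 h over Sox2 48 h (505); of the 7 genes, its other counts stayed within 1.5 times. No paired analysis was possible for comparisons with single-library groups because they share fewer than 2 numbers.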
